A study of Mus musculus with 7 samples.

Results

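Cell cycle and DNA replication genes were followed by bulk RNA-seq in 7 libraries of mouse skin cells that were sorted for the red reporter tdTomato. The 39 genes were taken by name from a deposited table of 25322 genes: 14 act in S phase, when DNA is copied, 21 act in mitosis, and 4 (Ccnd1, Ccne1, Ccne2 and E2f1) regulate the step from G1 into S phase. All 39 passed the filter on low values and were tested. The comparison is between 3 control and 4 Zfp750 knockout libraries, called Zfp750_KO, from mice on day 36. The deleted gene corresponds to human ZNF750, a transcription factor of epidermal differentiation.

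Per the labels every mouse had an inducible Cre under Lrig1, which marks stem cells of the upper hair follicle, listed as Lrig1-CreERT2 +/- or Lrig1-CreER +/-, and all mice, controls included, received 4-hydroxytamoxifen (4-OHT) on days 4 to 7 or 5 to 8 after birth. Of the controls, 2 are given as wt/fl and 1 as wt/wt for ZNF750, all Rosa26 +/-. The 4 knockouts are given as fl/fl, 3 of them Rosa26 +/- and 1 Rosa26 -/-. The column names of the table cannot be tied to single labelled mice, so the libraries carry those names here. Values are given in 1 order throughout: control 4F, 4M, 7F, then Zfp750_KO 1M, 2M, 3F, 6F. Nothing in the labels says that each library came from its own animal, and p-values therefore measure the spread between libraries, which may be technical.

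The cell cycle genes are transcribed in 2 main waves. In late G1, cyclin D and cyclin E kinases inactivate the retinoblastoma protein, which frees E2F factors to switch on genes for replication origins, DNA polymerase accessory factors and nucleotide synthesis. In G2 and M the MuvB complex, with B-MYB and FOXM1, switches on genes of the spindle, the kinetochore and the anaphase machinery, often through promoters with a CCAAT box and a cell cycle genes homology region (CHR). In skin, dividing cells are found in the basal epidermis, the hair matrix and the edge of the sebaceous gland, and also among fibroblasts and leukocytes, so the RNA of a sorted mixture does not tell which cells were cycling.

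The promoters of these genes are shown because the 2 phases hold different motifs. Sequences were taken from RefSeq, build GRCm38.p6, from 250 bases before to 50 bases after the start of each gene, and were found for 31 of the 39 genes. They are shown for the 2 members of each phase that have one and the highest mean normalized value, not corrected for gene length, and for Mcm6, which has the highest such value among the S phase members with an E2F word in the window and was chosen after the matches were seen. Each line gives the 250 bases before the start, 5′ to 3′ on the strand of the gene. Capitals mark exact matches to the CCAAT box (CCAAT, or ATTGG when read on the other strand), to the CHR (TTTGAA or TTCAAA) and to the E2F words TTTCCCGC, TTTGGCGC, TTTGCCGC and TTTCGCGC or their reverse complements. In Mcm6 a pair of E2F words on opposite strands overlap, and they appear as 1 run of capitals.
Mki67, chr7:135716380-135716629, minus strand: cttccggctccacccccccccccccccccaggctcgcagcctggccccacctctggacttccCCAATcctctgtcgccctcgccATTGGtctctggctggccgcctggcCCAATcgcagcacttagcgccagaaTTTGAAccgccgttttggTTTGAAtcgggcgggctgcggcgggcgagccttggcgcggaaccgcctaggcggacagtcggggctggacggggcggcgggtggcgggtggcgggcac
Top2a, chr11:99024190-99024439, minus strand: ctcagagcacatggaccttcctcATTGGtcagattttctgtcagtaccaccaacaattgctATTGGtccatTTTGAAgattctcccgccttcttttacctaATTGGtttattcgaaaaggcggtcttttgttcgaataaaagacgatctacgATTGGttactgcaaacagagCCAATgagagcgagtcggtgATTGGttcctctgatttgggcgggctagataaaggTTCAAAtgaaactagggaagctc
Pcna, chr2:132253181-132253430, minus strand: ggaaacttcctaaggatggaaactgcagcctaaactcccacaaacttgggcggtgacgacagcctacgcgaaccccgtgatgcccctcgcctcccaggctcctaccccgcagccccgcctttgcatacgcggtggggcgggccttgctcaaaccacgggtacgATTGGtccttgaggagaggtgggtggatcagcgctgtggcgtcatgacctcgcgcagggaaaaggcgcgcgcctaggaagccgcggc
Rrm1, chr7:102441445-102441694, plus strand: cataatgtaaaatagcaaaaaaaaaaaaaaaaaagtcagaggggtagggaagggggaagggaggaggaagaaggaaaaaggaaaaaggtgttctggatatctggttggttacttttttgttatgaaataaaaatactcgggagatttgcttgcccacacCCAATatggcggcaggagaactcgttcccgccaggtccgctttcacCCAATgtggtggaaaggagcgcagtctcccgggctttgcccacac
Mcm6, chr1:128359706-128359955, minus strand: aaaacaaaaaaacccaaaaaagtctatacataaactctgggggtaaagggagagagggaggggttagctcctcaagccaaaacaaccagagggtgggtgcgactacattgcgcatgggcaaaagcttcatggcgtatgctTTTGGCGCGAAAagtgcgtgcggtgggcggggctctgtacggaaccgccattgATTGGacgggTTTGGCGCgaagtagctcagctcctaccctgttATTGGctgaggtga

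The 2 phases differed in the words their promoters held. Over the whole 300 bases and both strands, a CHR was present in 12 of 17 mitosis promoters (70.6%) but in 2 of 13 S phase promoters (15.4%), beside 17.9% of all 32851 promoters of the table. All 12 mitosis promoters with a CHR also held a CCAAT box, a combination present in 6.95% of all promoters. An E2F word was present in 5 of 13 S phase promoters (38.5%), in 1 of 17 mitosis promoters (5.88%, that of Cdk1) and in 2.26% of all. The S phase genes with one were Cdc6, Mcm3, Mcm5, Mcm6 and 1 of the 2 listed starts of Mcm7. CCAAT boxes were common to both phases, in 15 of 17 and 10 of 13 promoters, against 37.4% of all. In 2 longer lists of other genes of each phase, a CHR was in 31 of 49 promoters of other mitosis genes and in 8 of 44 of other S phase genes, and an E2F word in 4 of 49 and 15 of 44. A match describes letters in this window and was not tested as a binding site. The members with no promoter in the table were Aurkb, Ccna2, Ccnd1, Ccne2, Gins2, Kif20a, Mcm4 and Tpx2.

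The libraries themselves differed widely before any cell cycle gene is considered. Library depth, recovered from the steps between values, was 9.09 to 17.1 M reads, with control 4F (17.1 M) and Zfp750_KO 6F (15.2 M) the deepest. The immune score, the mean log2 level of 20 leukocyte and myeloid genes, was 5.61, 10.24 and 10.48 in the controls and 7.51, 7.10, 11.40 and 11.05 in Zfp750_KO. Its largest gap divides an immune-poor class (control 4F, Zfp750_KO 1M and 2M) from an immune-rich class (control 4M and 7F, Zfp750_KO 3F and 6F). Keratinocyte genes ran the other way, with scores of 9.54 to 10.47 in the immune-poor and 7.25 to 8.67 in the immune-rich libraries, and fibroblast scores ranged from 12.69 in Zfp750_KO 3F to 15.11 in Zfp750_KO 1M. Zfp750 itself (ENSMUSG00000039238, chromosome 11) had normalized values of 335, 51.2 and 61.9 in the controls and 48.9, 45.4, 10.1 and 29.6 in Zfp750_KO. It was lower in every Zfp750_KO library than in every control, an order that 3.91% of all genes had. The gap was narrow, from 48.9 in Zfp750_KO 1M to 51.2 in control 4M. In the limma comparison of all libraries given below, its adjusted p was 0.891. If the letters M and F in the column names are read as sex, both immune-poor Zfp750_KO libraries are male and the immune-poor control is female, so genotype and sex cannot be told apart in that class.

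All members were detected in every library, and their levels differed by over an order of magnitude. The deposited values are normalized counts that are not corrected for gene length, so levels are compared between genes only per kb of annotated exon. Pcna, the sliding clamp of the DNA polymerases, had the highest mean level of the 39 genes (369 per kb), followed by Ccnd1, the cyclin of the G1 kinases, at 282 per kb. Rrm2 and Tk1, which supply deoxynucleotides, stood at 88.8 and 88.4 per kb, and Mcm4 and Mcm6 of the replicative helicase at 82.3 and 79.8. Of the mitosis genes Mki67, the Ki-67 protein that coats mitotic chromosomes, had 76.1 per kb, Top2a, the topoisomerase that untangles sister chromatids, 69.8, and Cenpa, the histone variant of centromeres, 65.5. The least abundant per kb were Cenpe and Cenpf, a kinetochore motor and a kinetochore protein, at 7.17 and 6.19. The smallest read number behind any value was 14, for Ube2c in Zfp750_KO 1M.

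The 2 phases moved together across the libraries. The S phase score, the mean log2 level of the 14 members, was 8.27 in control 4F, 7.67 in 4M and 7.72 in 7F, and 7.47, 7.45, 7.90 and 8.12 in Zfp750_KO. The mitosis score over 21 members was 7.39, 6.70 and 6.68 in the same controls and 6.30, 6.49, 6.95 and 7.33 in the same Zfp750_KO libraries. Both scores were highest in control 4F, then in Zfp750_KO 6F and 3F, next in controls 4M and 7F, and lowest in Zfp750_KO 1M and 2M. Mitosis genes spanned the wider range, 1.08 log2 units against 0.82 for S phase genes. The S phase score minus the mitosis score varied much less, from 0.79 in Zfp750_KO 6F to 1.17 in Zfp750_KO 1M.

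**Figure D1:**
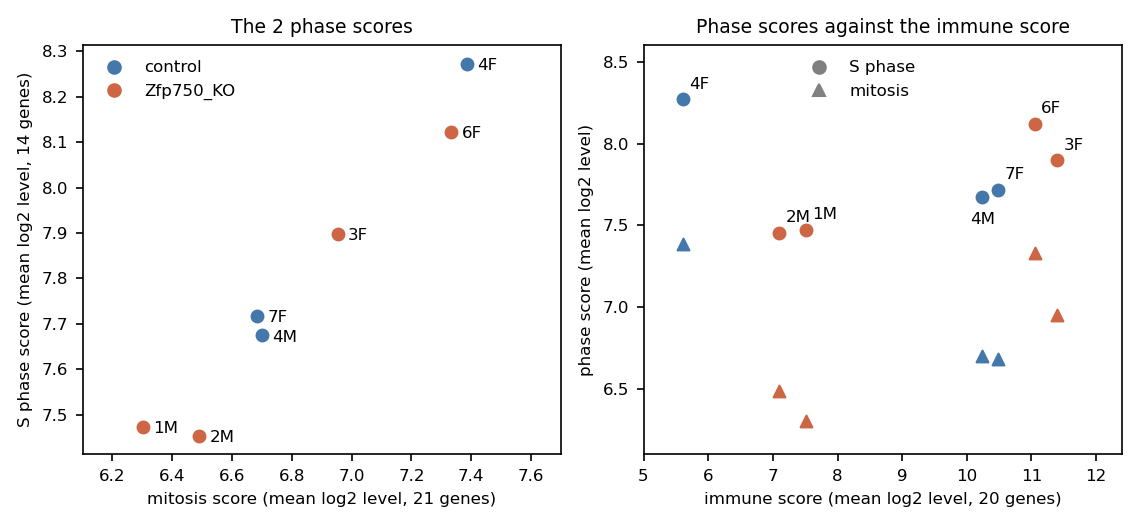
Left: the S phase score (vertical, mean log2 level of 14 genes) against the mitosis score (horizontal, mean log2 level of 21 genes), 1 point per library, control blue and Zfp750_KO orange. Right: both scores (circles S phase, triangles mitosis) against the immune score (mean log2 level of 20 genes). Left, the libraries line up from Zfp750_KO 1M and 2M to control 4F at 8.27 and 7.39. Right, they form an immune-poor group of 3 and an immune-rich group of 4, and control 4F stands above the other 2 immune-poor libraries in both scores.

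Neither phase separated the genotypes. The controls had an S phase score of 7.89 ± 0.33 (SD, n = 3) against 7.74 ± 0.33 (SD, n = 4) in Zfp750_KO, and the mitosis score 6.92 ± 0.40 and 6.77 ± 0.47, so that both differed by -0.15, less than the spread within either group. The difference between the scores was 0.96 ± 0.07 in controls and 0.97 ± 0.16 in Zfp750_KO. No p is given for these scores. Single genes followed the same order: control 4F was the highest library for 24 of the 39 members (9 of 14 S phase, 12 of 21 mitosis and 3 of 4 G1/S genes), Zfp750_KO 6F for 12 and Zfp750_KO 3F for 3. Zfp750_KO 1M was the lowest for 18 and Zfp750_KO 2M for 8. Control 4F and Zfp750_KO 6F are also the deepest libraries, and the part of depth in this order was not tested. By the letters in the column names, the S phase score was 7.72 or more in every F library and 7.67 or less in every M library. The mitosis score did not divide them, with 6.68 in control 7F and 6.70 in control 4M. If the letters are read as sex, the part of sex in this order was not tested either.

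**Figure D2:**
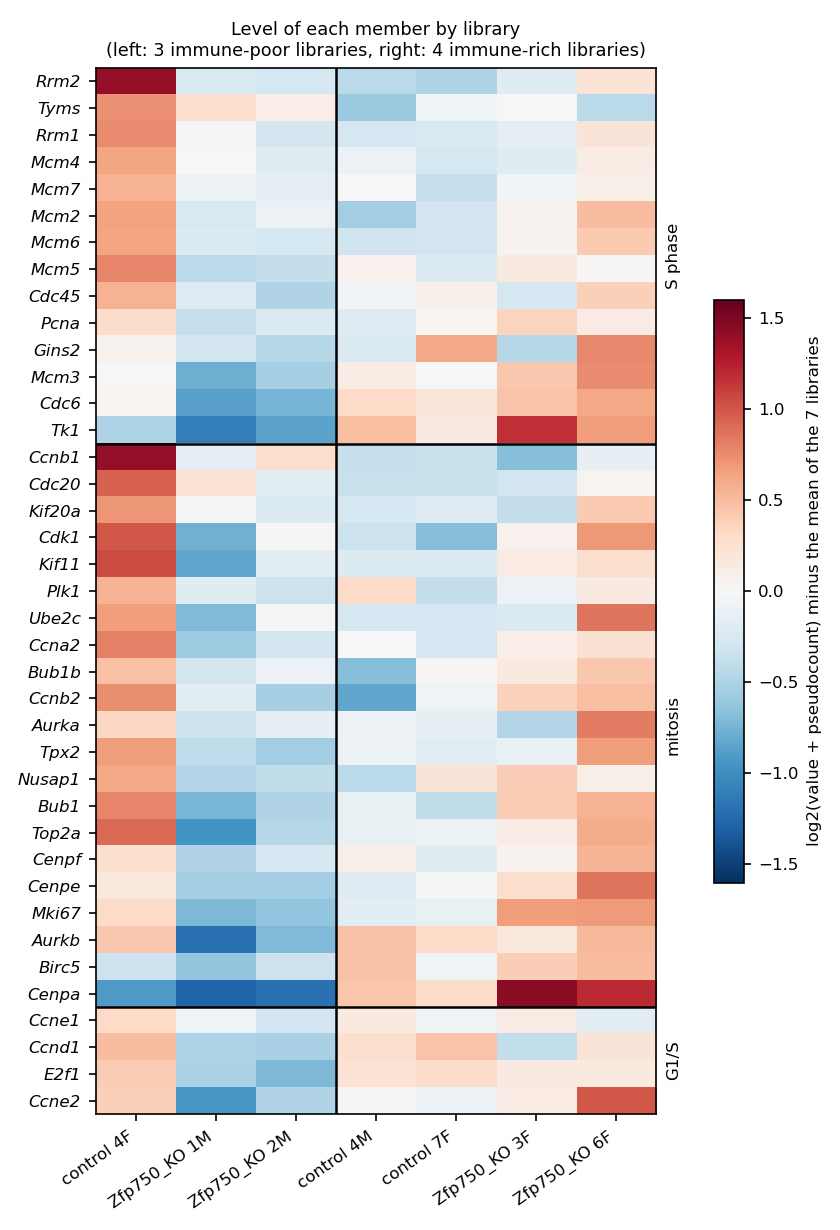
Each cell gives log2(value + pseudocount) of a member in a library minus that gene's mean over the 7 libraries, from blue (lower) to red (higher); members are grouped as S phase, mitosis and G1/S genes, and the black vertical line parts the 3 immune-poor libraries (left) from the 4 immune-rich ones. Control 4F is the highest library for 24 of 39 genes, Zfp750_KO 1M and 2M are low for most, and Tk1 and Cenpa at the ends of their groups are high in Zfp750_KO 3F and 6F.

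The comparison of all Zfp750_KO with all control libraries asks whether cell cycle transcripts of these sorted mixtures differ between the genotypes. In limma, fitted on log2(value + 11.9) over 18141 genes with Benjamini-Hochberg adjustment, 0 of 39 members and 0% of all genes had an adjusted p under 0.05. With array weights, which weight each library by its fit to the model, 4 members passed (Ccnd1, E2f1, Cdc6 and Aurkb, all lower), where 10.5% of all genes were then lower. At an unadjusted p under 0.05 there was 1 member, Ccnd1, which is lower, where 5.83% of all genes passed and 3.65% were lower. The differences of the members ranged from -0.70 to 0.13, 33 of 39 were negative, and their median was -0.14 beside 0.02 over all genes tested.

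Ccnd1 and E2f1 were the only members whose groups did not overlap, both lower in Zfp750_KO. This is 2 of 39 genes, a share near that of all genes, of which 3.91% lay entirely lower in Zfp750_KO and 3.19% entirely higher. Ccnd1 (ENSMUSG00000070348, chromosome 7) encodes cyclin D1, which pairs with CDK4 and CDK6 in G1. Its normalized values were 1798, 1524 and 1749 in the controls and 903, 884, 967 and 1476 in Zfp750_KO. The highest Zfp750_KO library, 6F, lay just below the lowest control, and the other 3 lay far below. The means were 1690 ± 146 (SD, n = 3) and 1058 ± 281 (SD, n = 4), a log2 difference of -0.70 ± 0.22 (SE) with an adjusted p of 0.605 in limma, and of 0.0124 with array weights. In the annotation 23.4% of its exon bases are shared with LTO1 on the opposite strand, and the strand setting of the counting is not given in the sources used here.

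E2f1 (ENSMUSG00000027490, chromosome 2) encodes the E2F factor that activates S phase genes. Its values were 270, 238 and 249 in the controls and 138, 118, 224 and 227 in Zfp750_KO. The immune-rich pair of Zfp750_KO libraries came close to the controls and the immune-poor pair lay well below them. The log2 difference was -0.53 ± 0.28 (SE, limma adjusted p = 0.964, and 0.0239 with array weights). The E-type cyclins, which drive CDK2 at the start of S phase, overlapped between the groups. Ccne1 averaged 71.9 ± 11.1 (SD, n = 3) in controls against 58.9 ± 9.24 (SD, n = 4) in Zfp750_KO. Ccne2 had 95.2 ± 19.0 and 94.8 ± 64.3, with 39.7 and 58.7 in Zfp750_KO 1M and 2M against 184.6 in 6F.

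Among S phase genes, Mcm5, a helicase subunit, had the most negative genotype difference, -0.37 ± 0.29 (SE), and Cdc45 and Cdc6, which load and activate the helicase, had -0.34 ± 0.30 and -0.32 ± 0.43. Among mitosis genes Aurkb, the kinase of the chromosomal passenger complex, had -0.70 ± 0.43, Top2a -0.41 ± 0.43 and Ccnb1, the mitotic cyclin B1, -0.39 ± 0.49. All 6 had a limma adjusted p of 1.0; with array weights that of Cdc6 was 0.0462 and that of Aurkb 0.0305. Aurkb had values of 95.2, 98.5 and 86.6 in the controls and 22.9, 36.7, 77.8 and 103 in Zfp750_KO. Only Zfp750_KO 6F reached the control range.

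**Figure D3:**
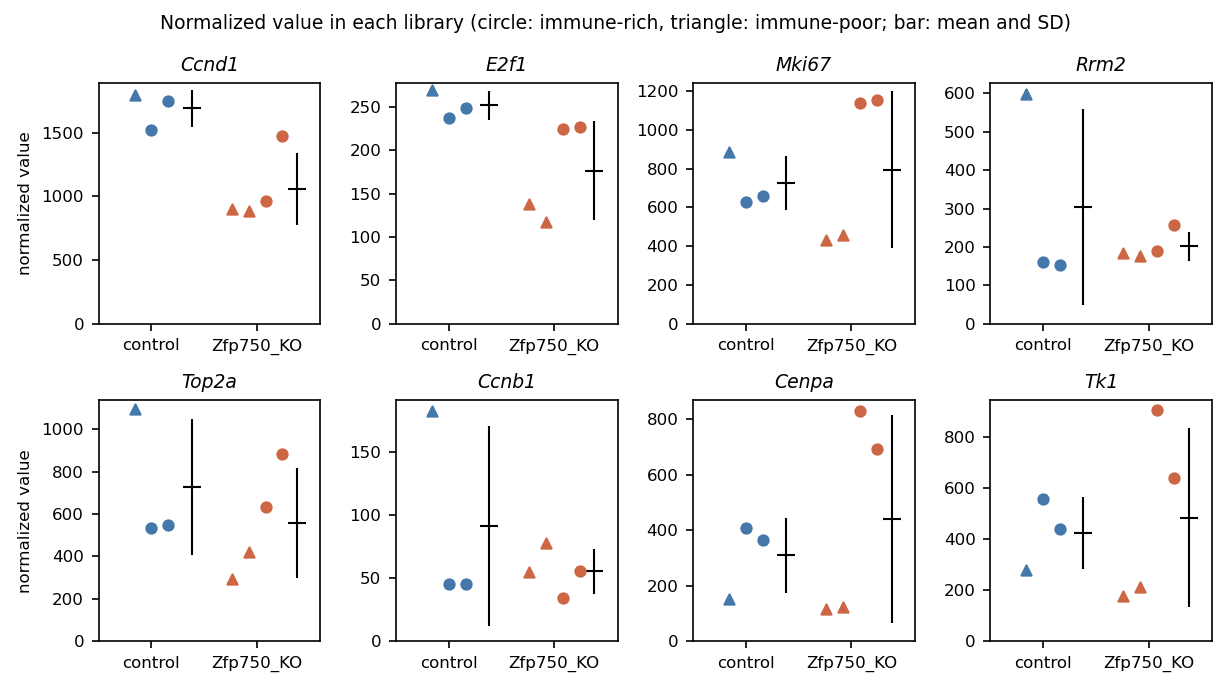
Normalized value in each library for Ccnd1, E2f1, Mki67, Rrm2, Top2a, Ccnb1, Cenpa and Tk1, with each vertical axis starting at 0; control is blue and Zfp750_KO orange, circles are immune-rich and triangles immune-poor libraries, and the black bar gives the group mean and SD. Of the genes shown, only Ccnd1 and E2f1 have groups that do not overlap, both lower in Zfp750_KO, where 3.91% of all genes lay entirely lower. Rrm2 and Ccnb1 have 1 high library, control 4F at 599 and 182, and Cenpa and Tk1 are high in Zfp750_KO 3F and 6F.

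The relation to immune content differed from gene to gene, and the mean of each phase hides it. Since the libraries form 2 clusters in immune score, no pooled correlation is given; the coefficient of the score was instead tested gene by gene in a limma fit that also holds the genotype. Cenpa, Tk1, Cdc6 and Birc5 rose with the score and Ccnb1 fell with it, 4 and 1 of 39 members, where 21.4% of all genes rose and 20.6% fell. These counts do not exceed the background, and the members' median coefficient was -0.005 per unit of score, beside -0.006 over all genes. Of these 5 genes 2 belong to S phase and 3 to mitosis.

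Cenpa (ENSMUSG00000029177, chromosome 5) had normalized values of 153, 408 and 364 in the controls and 115, 123, 830 and 693 in Zfp750_KO. All 4 immune-rich libraries lay above all 3 immune-poor ones, and its coefficient was 0.46 ± 0.07 log2 per unit of score (SE, limma adjusted p = 0.00154). Tk1 (ENSMUSG00000025574, chromosome 11), the thymidine kinase of the salvage pathway, had 278, 559 and 439 in the controls and 179, 213, 907 and 641 in Zfp750_KO. It divided the libraries in the same way, with a coefficient of 0.33 ± 0.07 (adjusted p = 0.00509). Cdc6, the helicase loader, had 0.19 ± 0.07 (adjusted p = 0.0483) and Birc5, survivin of the chromosomal passenger complex, 0.17 ± 0.06 (adjusted p = 0.0433). Both lay close to the threshold, and each lost the call in 5 of the 7 fits that left out 1 library.

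Ccnb1 (ENSMUSG00000041431, chromosome 13) had 182, 44.9 and 45.4 in the controls and 54.7, 77.5, 34.0 and 55.1 in Zfp750_KO. Its coefficient was -0.25 ± 0.07 (adjusted p = 0.0153), and the call was lost without control 4F and with scaling to the column total (adjusted p up to 0.194). Cdc20, the activator of the anaphase-promoting complex, had -0.15 ± 0.06 (adjusted p = 0.0807). Rrm2 and Tyms, of deoxynucleotide synthesis, were the lowest S phase genes, at -0.16 ± 0.09 and -0.16 ± 0.06, and did not pass. Rrm2 had 599 in control 4F and 154 to 258 in the other 6 libraries.

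The count of members that followed the immune score depended on control 4F. Without it 13 members rose with the score and 0 fell, where 22.2% of all genes then rose: Cenpa, Tk1, Cdc6, Birc5, Aurkb, Bub1, Ccne2, Cenpe, E2f1, Mcm3, Mki67, Pcna and Top2a. Without control 4M, Zfp750_KO 1M or 6F, 3 members passed each time (Cenpa and Tk1 higher, Ccnb1 lower). The share of all genes is not given for these 3 fits. With array weights 9 rose and 1 fell, where 23% of all genes rose and 22.7% fell. Cenpa and Tk1 kept the call in all 17 alternatives run. In place of the immune score, a fibroblast score gave 7 members that fell as fibroblast transcripts rose and 0 that rose with them, where 16.4% and 15.5% of all genes did so. They were Cenpa (-1.17 ± 0.13, SE, per unit of score), Tk1 (-0.86), Cdc6 (-0.58), Mki67 (-0.55), Aurkb (-0.54), Mcm3 (-0.52) and E2f1 (-0.32), with limma adjusted p-values of 0.00156 to 0.0441. In bulk libraries fewer cells of a type and less RNA per cell cannot be told apart.

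**Figure D4:**
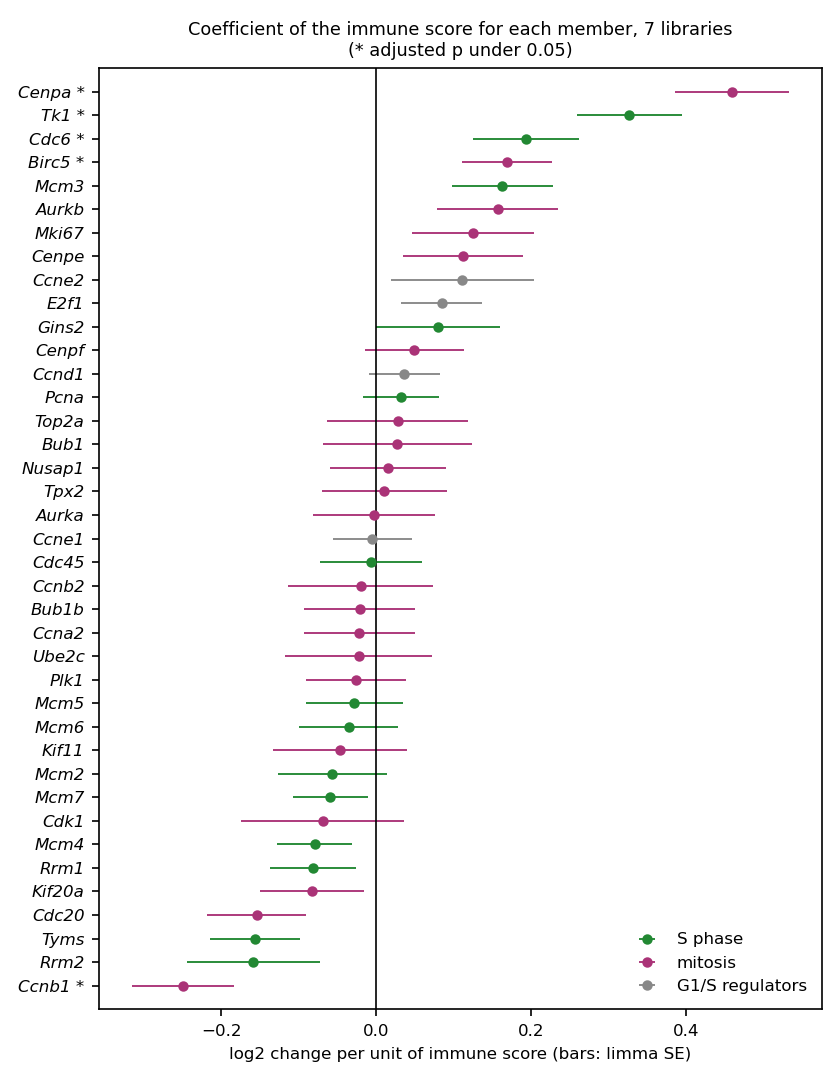
Coefficient of the immune score for each member (horizontal, log2 change per unit of score, bars are the limma SE), sorted, with S phase genes green, mitosis genes purple and G1/S genes grey; a star marks an adjusted p under 0.05. Genes of both phases are spread over the whole order, from Cenpa at 0.46 to Ccnb1 at -0.25, and 34 of the 39 did not pass.

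At equal immune score the genotypes again gave 0 members past the threshold, where 1.2% of all genes were higher and 2% lower in Zfp750_KO. Ccnd1 had the smallest adjusted p, 0.0878, with a log2 difference of -0.72 ± 0.19 (SE, limma). E2f1 had -0.58 ± 0.22 (adjusted p = 0.22) and Aurkb -0.78 ± 0.33 (adjusted p = 0.268). These 3 were the members with an unadjusted p under 0.05. Ccnd1 passed without Zfp750_KO 6F and with array weights, where 4.08% of all genes were lower.

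Within the classes the genotype difference had opposite signs. In the immune-rich libraries the S phase score was 0.31 and the mitosis score 0.45 higher in Zfp750_KO than in control. In the immune-poor libraries they were 0.81 and 0.99 lower, there against control 4F alone. Each class was compared by gene in 1 limma fit with a mean for each genotype in each class, which leaves 3 residual degrees of freedom. No sex term was added to that fit, although the letters M and F, if read as sex, are unbalanced between the genotypes in both classes.

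In the immune-rich class Mki67 and Cenpa rose in Zfp750_KO, 2 of 39 members, and none fell, where 4.58% of all genes rose and 7.04% fell. The share of members that rose is thus close to that of all genes. Mki67 (ENSMUSG00000031004, chromosome 7) had 630 and 659 in control 4M and 7F against 1141 and 1151 in Zfp750_KO 3F and 6F, a log2 difference of 0.82 ± 0.15 (SE, adjusted p = 0.00737). Cenpa differed by 0.95 ± 0.19 (adjusted p = 0.00983). Both calls were lost without control 4M and without control 7F, and that of Cenpa also without Zfp750_KO 3F. Without Zfp750_KO 6F, Tk1 was also called higher and Ccnd1 lower, and the share of all genes is not given for that fit. Mcm2, a helicase subunit, at 0.71 ± 0.22 (adjusted p = 0.0666) and Mcm6 at 0.55 ± 0.19 (adjusted p = 0.0885) did not pass. Both Zfp750_KO libraries lay above both controls in 21 of 39 members (12 of 21 mitosis, 8 of 14 S phase and 1 of 4 G1/S genes), where 28.8% of all genes did. Ccnd1 and E2f1 lay below both controls, an order that 25.3% of all genes had, and the other 16 members were mixed.

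Composition moved along with this contrast. Of 20 leukocyte and myeloid genes 11 were higher in the immune-rich Zfp750_KO libraries, with summed values of 98357 to 124136 against 58764 to 70857 in the controls, and none of them was at 0. Of 14 T and NK cell genes 8 were higher, with scores of 7.16 to 7.72 against 6.08 to 6.36 and Gzmb at 0 in control 4M. The summed values were 4839 to 5709 against 3390 to 3458, but this list shares Thy1 with the fibroblast list. In the immune-poor libraries the sums were higher, at 7824 to 9397, and the scores lower, at 4.77 to 5.93. The sums are therefore not read as an amount of T and NK cells. Of 15 fibroblast genes 12 were lower, with summed values of 226491 to 578935 against 1077500 to 1901720, and all 8 skeletal muscle genes were lower, at 310 to 510 against 3748 to 5800 and with Myod1 at 0 in Zfp750_KO 6F. The part of these cells in the difference of Mki67 and Cenpa was not tested.

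In the immune-poor class all 39 members were lower in both Zfp750_KO libraries than in control 4F, where 36.7% of all genes were. Of these, 12 fell at an adjusted p under 0.05 and none rose, where 2.29% of all genes fell and 4.81% rose. The comparison is of 2 libraries with a single control, which is assumed to vary like the other groups. Of the 12, 6 act in mitosis (Mki67, Top2a, Ccna2, Aurkb, Bub1 and Kif11), 4 in S phase (Mcm5, Mcm6, Rrm1 and Rrm2) and 2 at G1/S (Ccnd1 and E2f1). The count was smaller without control 4M, control 7F, Zfp750_KO 1M or 2M, and the share of all genes is not given for these fits.

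Rrm2 (ENSMUSG00000020649, chromosome 12), the regulated subunit of ribonucleotide reductase, had 599 in control 4F and 184 and 178 in Zfp750_KO 1M and 2M, a log2 difference of -1.66 ± 0.26 (SE, adjusted p = 0.00295). Top2a (ENSMUSG00000020914, chromosome 11) had 1097 against 292 and 418, which is -1.62 ± 0.26 (adjusted p = 0.00387). Kif11, the motor that separates spindle poles, had 378 against 94.6 and 156, a log2 difference of -1.54 ± 0.31 (adjusted p = 0.0116). These were the 3 steepest falls. Bub1, a spindle checkpoint kinase, fell by 1.39, Aurkb by 1.38 and Ccna2, the cyclin A2 of S phase and G2, by 1.25 on the log2 scale. Mcm5 fell by 1.18, E2f1 by 1.01, Ccnd1 by 1.00, Mki67 by 0.98, Rrm1, the large subunit of ribonucleotide reductase, by 0.91 and Mcm6 by 0.88. Mki67, Rrm2 and Top2a kept the call in all 15 alternatives that could be fitted.

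Beside these falls, 15 of 20 leukocyte and myeloid genes and 5 of 15 fibroblast genes were higher in the immune-poor Zfp750_KO libraries, and none of 17 keratinocyte genes passed. The summed values were 4280 to 6097 against 1341 for the leukocyte list, 1672220 to 1783830 against 2464350 for the fibroblast list and 20859 to 49641 against 56942 for the keratinocyte list, and no gene of the 3 lists was at 0 in these libraries. Control 4F had 17.1 M reads, Zfp750_KO 1M 12.9 M and 2M 13.6 M. The part of composition and depth in these falls was not tested.

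The difference between the classes was itself tested as an interaction. It was positive for all 39 members, and 12 passed, all higher (more positive in the immune-rich class), where 0.921% of all genes were higher and 3.68% lower. The 12 were Cdk1, Bub1, Rrm2, Top2a, Kif11, Mki67, Ccna2, Mcm2, Mcm6, Mcm5, Cenpa and Rrm1, 7 of 21 mitosis genes and 5 of 14 S phase genes. The median over all 39 members was 1.28, beside 0.02 over all genes tested. By phase the median was 1.39 for mitosis genes, 1.11 for S phase genes and 0.73 for the 4 G1/S genes, none of which passed.

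Mki67 had a difference of 0.82 in the immune-rich and -0.98 in the immune-poor class, an interaction of 1.80 ± 0.24 (SE, limma adjusted p = 0.00226). Rrm2 had 0.46 and -1.66, an interaction of 2.13 ± 0.34 (adjusted p = 0.0057). The largest estimate was that of Cdk1, the kinase that starts mitosis, at 2.27 ± 0.54 (adjusted p = 0.0413), with values of 152, 52.5 and 39.4 in the controls and 36.4, 71.5, 74.4 and 121 in Zfp750_KO. Both Zfp750_KO libraries lay above both controls in the immune-rich class and below the control in the immune-poor class for 21 of 39 members, where 8.18% of all genes showed that order. The test rests on control 4F, the only immune-poor control, and cannot be fitted without it. By column name the immune-rich contrast sets 3F and 6F against 4M and 7F, and the immune-poor contrast sets 1M and 2M against 4F. If M and F are read as sex, it is unbalanced in opposite directions in the classes. No sex term was fitted to the interaction. Fewer members passed without control 4M, control 7F, Zfp750_KO 1M, 2M or 6F, and more without Zfp750_KO 3F. The share of all genes is not given for these fits, so the changes are not read as particular to the members. Mki67 and Rrm2 passed in all of these fits.

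**Figure D5:**
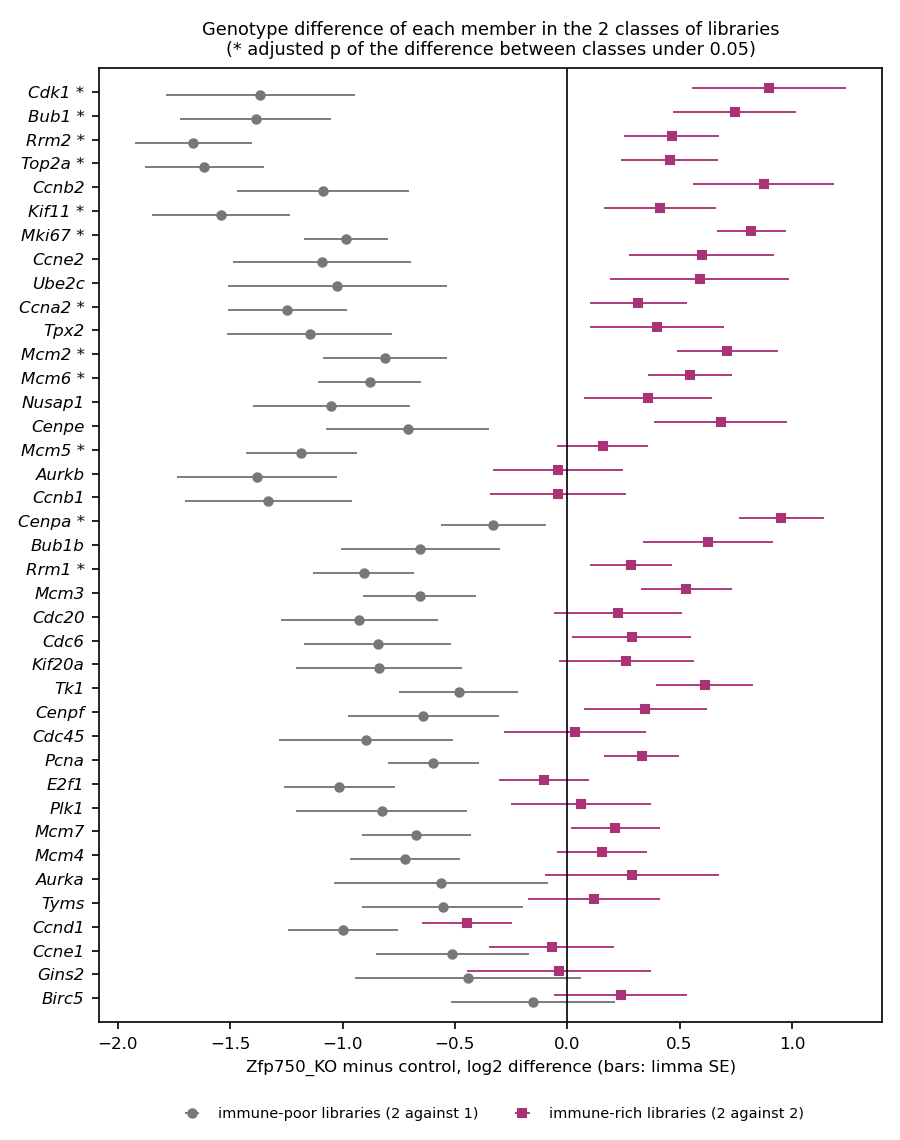
Zfp750_KO minus control (horizontal, log2 difference, bars are the limma SE) for each member in the immune-poor libraries (grey circles, 2 Zfp750_KO against 1 control) and in the immune-rich ones (purple squares, 2 against 2), sorted by the difference between the classes; a star marks the 12 members whose adjusted p of that difference is under 0.05. All 39 grey points lie below 0, and 33 of 39 purple points lie above it.

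Further genes of the same phases were taken from lists chosen by textbook membership. Of 50 other S phase genes 49 were tested, and of 53 other mitosis genes all were. In the comparison of all libraries and at equal immune score, 0 genes of either list passed, with 0 and 1 genes at an unadjusted p under 0.05 in the former. In the immune-poor class 4 of 49 other S phase genes and 7 of 53 other mitosis genes fell, beside 2.29% of all genes, and none rose, beside 4.81%. Uhrf1, which carries DNA methylation through replication, fell by 1.46 and Smc2, a condensin subunit, by 1.27 on the log2 scale. In the immune-rich class 1 of 49 and 2 of 53 rose, fewer than the 4.58% of all genes, and none fell. Blm, a DNA helicase, rose by 1.06 and Smc4, also of condensin, by 0.85. The interaction passed for 3 of 49 and 9 of 53 genes, all higher, beside 0.921% of all genes. The largest of them were E2f8, a repressing E2F, at 2.33 and Hmmr, a spindle protein, at 2.00, and the medians were 0.86 and 1.19. With the immune score 2 of 49 other S phase genes rose, Slbp at 0.21 and Rfc2 at 0.19 per unit, and none fell. Of 53 other mitosis genes Gas2l3 rose, at 0.58, and Psrc1 fell, at -0.21. These shares lie far below the 21.4% and 20.6% of all genes that rose and fell.

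Regulators upstream of S phase were counted in the same way. Of 17 further G1 cyclins, CDKs and E2F or MYC factors, 3 rose with the immune score (E2f2, Ccnd3 and E2f4) and 6 fell (Myc, Ccnd2, Mycn, Cdk4, Tfdp1 and Tfdp2), again beside 21.4% and 20.6% of all genes. The cyclins D were divided: Ccnd3 had 668, 1211 and 1204 in the controls and 742, 961, 1650 and 1449 in Zfp750_KO, and Ccnd2 had 6217, 2625 and 2689 and 4488, 5078, 2246 and 2352. Ccnd3 was thus high and Ccnd2 low in all 4 immune-rich libraries, while Ccnd1, a member whose genotypes did not overlap, had a coefficient of 0.04 ± 0.05 (SE). In the immune-rich class 2 of the 17 rose, Cdk6 by 1.18 and E2f2 by 1.06, and 1 fell, Myc by 0.70, beside 4.58% and 7.04% of all genes. Of 15 tested CDK inhibitors and pocket proteins 1 passed in the immune-poor class, beside 2.29% of all genes that fell. Cdkn1a, the p53 target p21, fell by 1.36 ± 0.19 in the immune-poor class (SE, limma adjusted p = 0.00157), the class in which the cycle genes were lower. Its values were 5718 in control 4F and 2411 and 2056 in Zfp750_KO 1M and 2M. Its interaction was 1.61 ± 0.25 (adjusted p = 0.00474), of the same sign as those of the 12 members.

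Some members share exon bases with neighbours on the opposite strand, whose reads cannot be told apart without the strand setting. This holds for 12 of the 39 genes, and the shared part exceeds 20% for 4 of them. It is 67.3% for Gins2, a subunit of the replicative helicase (with Gse1), 29.3% for Kif20a, a kinesin of cytokinesis (with Cdc23), 23.4% for Ccnd1 and 22.8% for Ube2c, a ubiquitin-conjugating enzyme of anaphase (with Tnnc2). Over the fits with genotype, immune score and class, 20 of the 39 members passed in none. They include the spindle and checkpoint genes Ccnb2, Bub1b, Plk1, Aurka, Tpx2, Cenpe, Cenpf and Nusap1, and the helicase genes Mcm3, Mcm4, Mcm7, Gins2 and Cdc45. The others were Cdc20, Kif20a, Ube2c, Pcna, Tyms, Ccne1 and Ccne2. The fit with the fibroblast score, in which Mcm3 passed, is not among those counted. Within this set Ccnb2 had the interaction closest to the threshold, 1.96 ± 0.50 (SE, limma adjusted p = 0.0509).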

How the data were processed

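The authors deposited 1 table for 25322 genes whose values are a signal, called normalized counts per the file headers, and not raw counts. Of the values below 200 reads, 77.9% to 79.5% per library were whole multiples of 1 step (tolerance 0.02), so whole reads were not recovered and no count test was run. TopHat2 2.1.0 and Partek 9.0.20.0202 are named per the submitters' processing notes; for build and strand setting, nothing is given in the sources used here. Exon lengths and shared exons come from GENCODE M21.

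Values were analysed as log2(value + 11.9), the pseudocount being 1 per M of the median column total; this understates changes of low genes. Genes with at least 1 per M in at least 3 libraries were tested with limma 3.58.1 (lmFit, eBayes with trend) in R 4.3.3, adjusted over all 18141 genes at 0.05. The fits held genotype, genotype with immune score, or genotype by class. The genotype, immune score, immune-rich and interaction comparisons were tried on simulated data. The comparison at equal immune score and that within the immune-poor class were not. Other pseudocounts, filters, scalings (trimmed mean of M values, upper quartile, column total), moderation, array weights, a sex term and omitted libraries were also tried. The sex term was fitted only in the comparison of all libraries, at equal immune score and for the immune score. It was not fitted within the classes or to the interaction.

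The members and lists were chosen with earlier results of these data known. Singly described are the 4 G1/S genes, every called member, and in each phase the 3 highest means, the 3 largest genotype differences and the 2 largest and 2 smallest coefficients of the immune score; in each further list, up to 4 called genes. Cdk6, Cdkn1a and the cyclins D are among these.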

Additional observations from a re-analysis of the deposited data

Results flagged for a closer look

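In 3 of the 39 members, 1 of the 4 Zfp750_KO libraries stood apart from the other 3 by more than a test for a single outlying value allows, and each time it was Zfp750_KO 6F. Its normalized value was 1476 for Ccnd1, 258 for Rrm2 and 137 for Gins2, against 884 to 967, 178 to 189 and 51.5 to 59.2 in the others. Chance gives such a result in about 1 in 20 groups, so some of the 39 members would show it by chance alone. The test was run on the members only, so no share over all genes stands beside the 3. It takes the 4 libraries as 1 uniform group, although they come from both the immune-poor and the immune-rich class. The 3 members are therefore not read as more than chance gives. Zfp750_KO 6F was the deepest Zfp750_KO library, with 15.2 M reads.

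In 12 members the genotype difference differed between the immune-rich and the immune-poor libraries by the limma test of that difference. It was 2.27 for Cdk1, 2.13 for both Bub1 and Rrm2, 2.07 for Top2a, 1.95 for Kif11, 1.80 for Mki67, 1.56 for Ccna2, 1.53 for Mcm2, 1.42 for Mcm6, 1.34 for Mcm5, 1.28 for Cenpa and 1.19 for Rrm1 on the log2 scale, with adjusted p-values of 0.00226 to 0.0446. All of them rest on control 4F as the only immune-poor control, and no sex term was fitted to them.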

How the results depend on the processing

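Recomputing the 9 reported values under other settings gave 146 alternative values in all. Of these, 124 stayed within 1.5 times the count or within the spread of the libraries. A score difference that changed sign within that spread was counted as staying. With no filter on low values, 3 members passed on the immune score, where 4071 of 25322 genes rose and 3624 fell. In the interaction 7 members passed, all higher, where 118 of all genes were higher and 536 lower. With scaling to the column total, 5 rose in the immune-rich class, where the median difference over all genes was 0.15, against 0.04 in the main fit. The share of all genes that rose under that scaling is not given here, so the 5 are not set against a background. With array weights, 4 members (Ccnd1, E2f1, Cdc6 and Aurkb, all lower) passed in the comparison of all libraries, where 10.5% of all genes were lower. The same weights gave 1 member at equal immune score, where 4.08% of all genes were lower. On the immune score they gave 10, where 23% of all genes rose and 22.7% fell. Without 1 library at a time, the count of members past the threshold ranged from 3 (control 4M, Zfp750_KO 1M or 6F left out) to 13 (control 4F) on the immune score, from 0 (control 4M or 7F) to 4 (Zfp750_KO 6F) in the immune-rich class, from 3 (Zfp750_KO 1M) to 14 in the immune-poor class, from 2 (control 4M) to 13 in the interaction and from 0 to 1 (Zfp750_KO 6F) at equal immune score, and was 0 in the comparison of all libraries. In the immune-poor class it was 6 without control 4M or 7F and 7 without Zfp750_KO 2M. The cause was not tested. The S phase score difference ranged from -0.28 to 0.04 and that of the mitosis score from -0.34 to 0.08, positive without control 4F. The genotype difference of Ccnb1 was 0.33 with array weights and 0.20 without control 4F, down to -0.69 without 4M. That of Ccne2 was 0.11 without Zfp750_KO 1M, down to -0.53 without 6F. None of these passed. A sex term gave 6 members on the immune score, 2 higher and 4 lower. Shares over all genes are not given here beside the counts for the sex term and the omitted libraries. No paired analysis was possible because the columns carry no replicate number of the labels. The few reads of Ube2c and other low genes limit their precision.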
